A study of Homo sapiens with 10 samples.

Results

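The MYC network genes are 10 genes that encode transcription factors of the MYC, MAX and MXD families and their partners, namely MYC, MYCN, MAX, MXD1, MXD3, MXD4, MXI1, MNT, MLX and MGA. They were chosen by name, as the rows that carry these symbols, and all 10 were found among the 23426 genes measured. Their RNA was followed in MDA-MB-468, an established basal-like breast cancer line, and in ZR75-1, an established luminal line. Each line was kept for 6 h in DMSO, the solvent control (2 samples per line), or in 1 µM PKC412 (3 samples per line). The dose is that of the labels and methods, and some figure legends of the study give a lower one, so the dose is in doubt. PKC412, also called midostaurin, is a staurosporine derivative that inhibits several protein kinases. No transgene or deletion was used, and all 10 samples shared the 6 h in DMSO or PKC412. Each subtype stands on 1 line, so that a difference between the lines cannot be told apart from a difference between subtypes. The study kept its lines in media recommended by their supplier and does not name them. A difference in medium between the lines therefore cannot be told apart either. Levels are in FPKM, sequenced fragments corrected for gene length and for sequencing yield. The first correction allows only a rough comparison between genes, since the samples differed in base composition and some members overlap other genes. In bulk RNA, fewer cells that express a gene and less of its RNA per cell cannot be told apart.

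MYC and MYCN bind DNA as dimers with MAX at a short sequence called the E-box, CACGTG, and activate genes of growth and ribosome production. MXD1, MXD3, MXD4, MXI1 and MNT compete for MAX and repress many of the same genes through SIN3 and histone deacetylases, and MGA pairs with MAX within a Polycomb-type repressor complex. MLX pairs with some of these repressors and with MLXIP and MLXIPL, which respond to sugar. Because these proteins share partners, the levels of the members are often read against each other.

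The E-box itself occurs in the promoters of some members. In the 250 bases before each annotated start, 9 of the 10 members had a window in the RefSeq promoter table (GRCh38.p14, 14 windows in all), and CACGTG, which reads the same on both strands, was found in 3 of these members: MXD4, MNT and MLX. The motif was in 6.34% of the 35116 windows of the table and in 7.73% of the 27305 genes with a window. The windows of MXD4 (chr4:2262110-2262359, minus strand) and MXD3 (chr5:177312753-177313002, minus strand) are shown in full because these members differed between the lines in DMSO and in PKC412 alike. For MNT (chr17:2401221-2401280, minus strand) and MLX (chr17:42567023-42567082, plus strand), 60 bases around the motif are shown. All are 5′ to 3′ on the strand of the gene, with the E-box in capitals, which began 238, 193 and 50 bases before the start in MXD4, MNT and MLX.
MXD4: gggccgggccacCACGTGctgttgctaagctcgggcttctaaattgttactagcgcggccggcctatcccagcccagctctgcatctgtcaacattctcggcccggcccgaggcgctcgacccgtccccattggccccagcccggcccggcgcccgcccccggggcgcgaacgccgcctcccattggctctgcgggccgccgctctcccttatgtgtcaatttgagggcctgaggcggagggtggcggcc
MXD3: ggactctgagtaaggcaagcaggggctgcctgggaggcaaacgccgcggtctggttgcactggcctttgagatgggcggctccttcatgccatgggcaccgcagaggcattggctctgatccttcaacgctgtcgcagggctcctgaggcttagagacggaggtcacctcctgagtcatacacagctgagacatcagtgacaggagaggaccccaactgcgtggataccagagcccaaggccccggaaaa
MNT: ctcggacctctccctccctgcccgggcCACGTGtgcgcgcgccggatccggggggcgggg
MLX: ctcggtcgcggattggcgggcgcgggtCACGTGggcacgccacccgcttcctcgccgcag
These letters describe the sequence, and binding was not measured in this series.

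The lines carried the marker genes of their labels. Of 9 luminal markers, 8 were lower in MDA-MB-468 in DMSO, and of 7 basal markers tested, 5 were higher and 1, CDH3, was lower (limma adjusted p under 0.05). The progesterone receptor gene PGR was at 0 in all MDA-MB-468 samples and at most 0.549 FPKM in ZR75-1, while the basal marker TP63 was at most 0.0723 FPKM in both lines. Among 6 markers of blood, endothelial and stromal cells, 5 were at or below 0.0651 FPKM in every sample, and PECAM1 reached 0.43 to 0.89 FPKM in MDA-MB-468. FPKM sums ran from 599228 to 835069. The 2 DMSO samples of ZR75-1 stood apart from each other, and which of them is the unusual one cannot be told. Between them 15.1% of 8900 genes differed by more than 2-fold, against 3.33% of 9805 genes between the DMSO samples of MDA-MB-468. ZR75-1 PKC412 replicates 2 and 3 differed in 22.4% of 8912 genes. The number of reads is unknown, and the methods state treatment in triplicate, of which 2 DMSO samples per line were analysed here. Whether replicates came from separate experiments is not given in the sources used here, so the p-values measure only the spread between these samples.

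**Figure D1:**
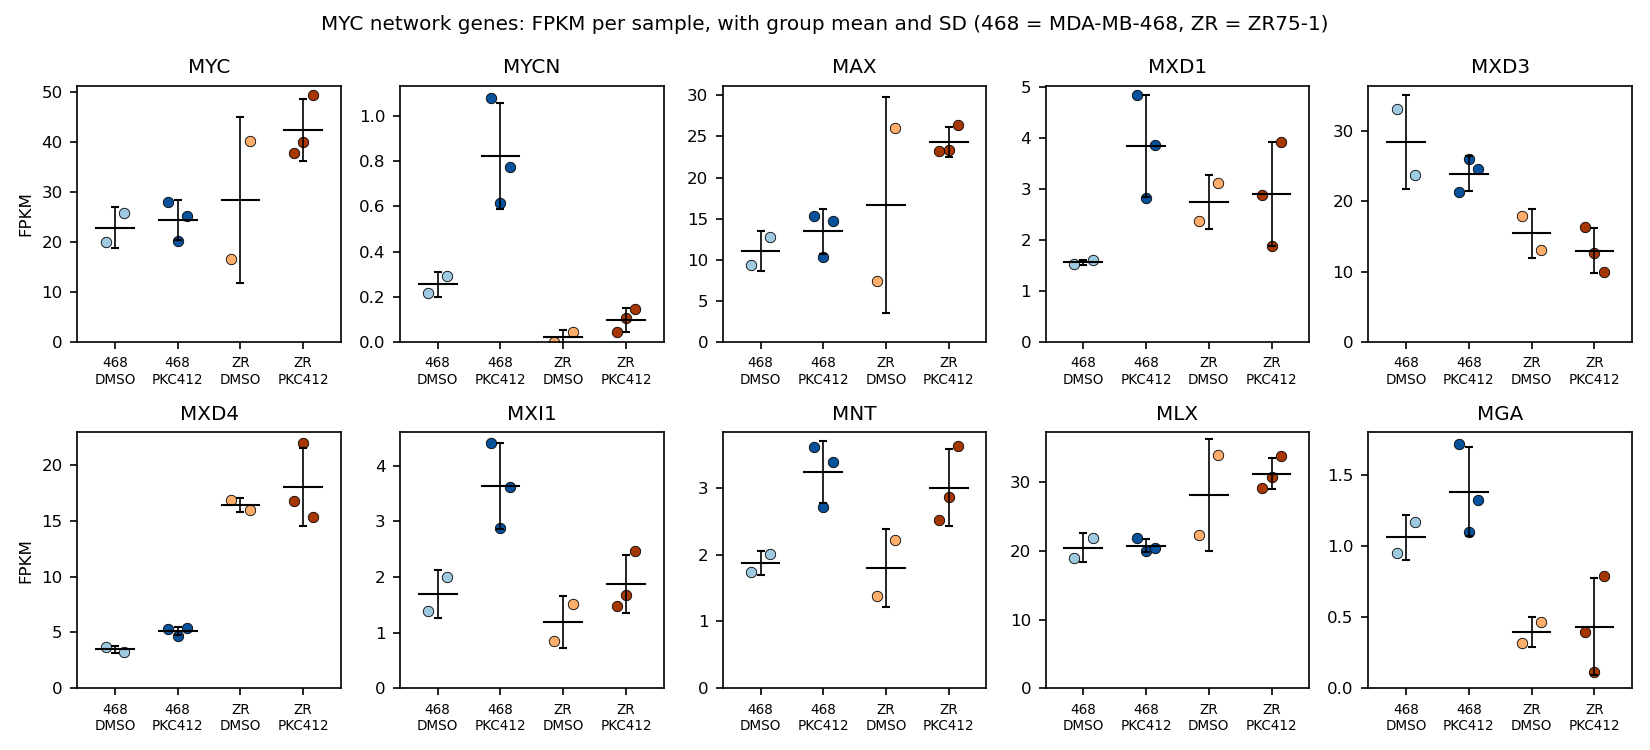
FPKM (vertical axes, linear, starting at 0, a separate scale per gene) of the 10 members in each sample, with the group mean (horizontal line) and SD (whiskers) for DMSO (2 samples) and PKC412 (3 samples) in MDA-MB-468 and ZR75-1. MXD4 was 15.3 to 22.0 FPKM in every ZR75-1 sample and at most 5.43 in MDA-MB-468, while MYC and MAX in ZR75-1 DMSO were split between 1 low and 1 high sample.

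Within the network, MYC, MLX, MXD3 and MAX were abundant members in both lines, and MXD4 was abundant in ZR75-1 only. In MDA-MB-468 in DMSO, the mean levels were 28.5 FPKM for MXD3, 22.8 for MYC, 20.4 for MLX and 11.1 for MAX, and the samples of MXD3, MYC and MLX overlapped in this order, whereas MAX lay below MLX and MXD4 (3.48) below MAX without overlap. MNT (1.87), MXI1 (1.70) and MXD1 (1.56) followed with overlapping samples, then MGA (1.06) and MYCN (0.254). In ZR75-1 in DMSO, the order was MYC (28.4 FPKM), MLX (28.1), MAX (16.7), MXD4 (16.4) and MXD3 (15.5), each overlapping the next, and then MXD1 (2.73), MNT (1.80), MXI1 (1.19), MGA (0.393) and MYCN (0.0222). MXD3 therefore headed the order in MDA-MB-468 and stood below MXD4 on average in ZR75-1, and MXD4 was a low member in MDA-MB-468 and an abundant one in ZR75-1. In PKC412, MYC had the highest mean in both lines, at 24.4 ± 3.97 FPKM in MDA-MB-468 and 42.4 ± 6.11 in ZR75-1 (SD, n = 3), and it overlapped MXD3 in MDA-MB-468 but lay above MLX (31.2) without overlap in ZR75-1.

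PKC412 was then compared with DMSO in MDA-MB-468, on log2(FPKM + 1) with limma across 16071 genes. None of the 10 members passed an adjusted p of 0.05, while 202 of all genes tested, 1.26%, did, and 5 members against 16.4% of all genes had an unadjusted p under 0.05. The median change of the members was 0.35 (log2), against 0.11 over all genes tested, and 9 of the 10 values were positive.

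Of the MYC genes, MYC was at 20.0 and 25.7 FPKM in DMSO and at 27.9, 20.1 and 25.2 FPKM in PKC412. These groups overlapped, and the log2 change was 0.09 (SE 0.33, 95% interval -0.67 to 0.85, limma adjusted p = 0.907). MYCN, a paralog best known from neural tumours, was at 0.214 and 0.294 FPKM in DMSO and at 1.08, 0.616 and 0.774 FPKM in PKC412. All PKC412 samples lay above both DMSO samples, at low levels throughout, and the ratio of the means was 3.24. That ratio was at least 3 for 6.14% of the 14955 genes above 0.1 FPKM in this line. The log2 change of MYCN was 0.53 (SE 0.10, 95% interval 0.30 to 0.77), just short of the threshold with a limma adjusted p of 0.0554. The call was made without PKC412 replicate 2 (log2 change 0.62) and after an adjustment for GC content and length that was chosen after seeing the data (0.53, adjusted p = 0.0265). The antisense gene MYCNOS, which shares 98 exonic bases with MYCN, was at 0 to 0.215 FPKM, and reads of the pair cannot be told apart without strand.

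Among the repressors, 4 had PKC412 samples wholly above the DMSO samples. MXD1, a repressor that rises in many cells as they leave the cycle, was at 1.52 and 1.59 FPKM in DMSO and at 4.83, 2.83 and 3.86 FPKM in PKC412, with a log2 change of 0.90 (SE 0.26, limma adjusted p = 0.191). It shares 237 of its 6351 exonic bases with SNRNP27 on the same strand. SNRNP27 was at 10.9 and 14.2 FPKM in DMSO and at 16.5, 15.5 and 15.8 FPKM in PKC412. The part of shared reads in the MXD1 values was not tested. MXI1, a relative of MXD1, was at 1.39 and 2.00 FPKM in DMSO and at 4.41, 2.87 and 3.62 FPKM in PKC412, with a log2 change of 0.78 (SE 0.23, limma adjusted p = 0.199). MNT, the most widely expressed repressor of the network, was at 1.74 and 2.00 FPKM in DMSO and at 3.61, 2.71 and 3.38 FPKM in PKC412, with a log2 change of 0.56 (SE 0.20, limma adjusted p = 0.254). In each of them the groups were apart and PKC412 replicate 2 was the lowest treated sample. MXD4 went from 3.69 and 3.28 FPKM to 5.28, 4.69 and 5.43 FPKM, with a log2 change of 0.45 (SE 0.16, limma adjusted p = 0.257). MXD3 was the member with a negative change, -0.23 (SE 0.23, 95% interval -0.77 to 0.32, limma adjusted p = 0.574), from 33.2 and 23.7 FPKM to 21.3, 26.0 and 24.6 FPKM with overlap.

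With MYCN, 5 of the 10 members were thus higher in every PKC412 sample than in any DMSO sample of MDA-MB-468, and none was lower, while 39.6% of all genes tested were wholly higher and 16.3% wholly lower. The DMSO samples also differed from the PKC412 samples in base composition, since the slope of log2 level on transcript GC content was 0.37 and 0.06 per 10 percentage points in DMSO and -0.29, -0.02 and -0.12 in PKC412. MXD1 and MXI1 have transcripts of 42.7% and 43.7% GC, and after the adjustment for GC content and length their log2 changes were 0.45 and 0.41 (adjusted p = 0.129 and 0.168). MNT and MXD4, at 61.4% and 64.0% GC, had 0.53 and 0.49 after it, and neither passed the adjusted threshold. PECAM1, an endothelial marker, also moved with the agent in this line, from 0.511 and 0.430 FPKM to 0.891, 0.760 and 0.831 FPKM (log2 change 0.31, limma adjusted p = 0.0404). That call held in 1 of 10 fits with a sample left out (without PKC412 replicate 2) and under 1 of 10 other alternatives (no filter on low FPKM), and the change was 0.17 (adjusted p = 0.160) after the adjustment for GC content and length. The summed level of the 6 markers of other cell types was 0.434 to 0.521 FPKM in DMSO and 0.780 to 0.984 FPKM in PKC412. PECAM1 made up most of this sum in every sample, and DCN was at 0 in all 5 samples. The part of base composition or of these markers in the values of the members was not tested.

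The dimer partners showed small changes. MAX, the shared partner, was at 9.38 and 12.8 FPKM in DMSO and at 15.3, 10.3 and 14.7 FPKM in PKC412, with overlap and a log2 change of 0.25 (SE 0.43, 95% interval -0.73 to 1.23, limma adjusted p = 0.743). MLX, which pairs with MLXIP, was between 18.9 and 21.9 FPKM in all 5 samples, and its log2 change was 0.03 (SE 0.17, 95% interval -0.37 to 0.42, limma adjusted p = 0.967). MGA, the large repressor with a second DNA-binding domain, was at 0.950 and 1.17 FPKM in DMSO and at 1.72, 1.10 and 1.32 FPKM in PKC412, also with overlap, and its log2 change was 0.20 (SE 0.20, limma adjusted p = 0.554).

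In ZR75-1, likewise, none of the members passed the threshold, while 152 genes, 0.946% of those tested, did. Only MNT had an unadjusted p under 0.05, as did 11.2% of all genes. The median change of the members was 0.14 (log2) against 0.07 over all genes, with 9 of the 10 values positive.

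MYC and MAX in ZR75-1 turned on which DMSO sample was kept. The GC slopes of this line were 0.31 and -0.19 in DMSO and -0.11, 0.34 and -0.36 in PKC412. Their part in these values was not tested. MYC was at 16.6 and 40.1 FPKM in DMSO and at 37.8, 40.0 and 49.3 FPKM in PKC412, and its log2 change was 0.68 (SE 0.33, 95% interval -0.08 to 1.44, limma adjusted p = 0.493). MAX was at 7.41 and 26.0 FPKM in DMSO and at 23.2, 23.4 and 26.4 FPKM in PKC412, and its log2 change was 0.75 (SE 0.43, 95% interval -0.23 to 1.73, limma adjusted p = 0.561). In both genes DMSO replicate 1 was far below the other 4 samples and DMSO replicate 2 lay within the range of PKC412. Without DMSO replicate 1 the log2 change was 0.07 for MYC and -0.09 for MAX (limma adjusted p = 1.0 for both), and without DMSO replicate 2 it was 1.29 for MYC (adjusted p = 0.0688) and 1.59 for MAX (adjusted p = 0.0473). Between the DMSO replicates themselves MYC differed by -1.27 and MAX by -1.81 on the log2 scale of FPKM, and 8.0% and 2.20% of 8900 genes had a lower value than theirs.

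MNT was the member whose samples did not overlap in ZR75-1. It was at 1.38 and 2.22 FPKM in DMSO and at 2.52, 2.86 and 3.63 FPKM in PKC412, with a log2 change of 0.52 (SE 0.20, 95% interval 0.07 to 0.98, limma adjusted p = 0.390), and the change was 0.31 without DMSO replicate 1. In this line 14.8% of all genes tested were wholly higher in PKC412 and 6.98% wholly lower. MXI1, from 0.853 and 1.52 FPKM to 1.48, 1.67 and 2.46 FPKM, had a log2 change of 0.39 (SE 0.23, limma adjusted p = 0.582), with overlap between DMSO replicate 2 and PKC412 replicate 1. MXD1 (2.36 and 3.11 FPKM, then 2.88, 1.88 and 3.91 FPKM) changed by 0.03 with a 95% interval of -0.57 to 0.64. For MXD3, MXD4, MLX and MGA the log2 changes were -0.25, 0.11, 0.17 and 0.02, and the groups overlapped in each. MYCN was listed at 0 and 0.0443 FPKM in DMSO and at 0.0418, 0.105 and 0.146 FPKM in PKC412, with a log2 change of 0.10 (SE 0.10, limma adjusted p = 0.771).

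**Figure D2:**
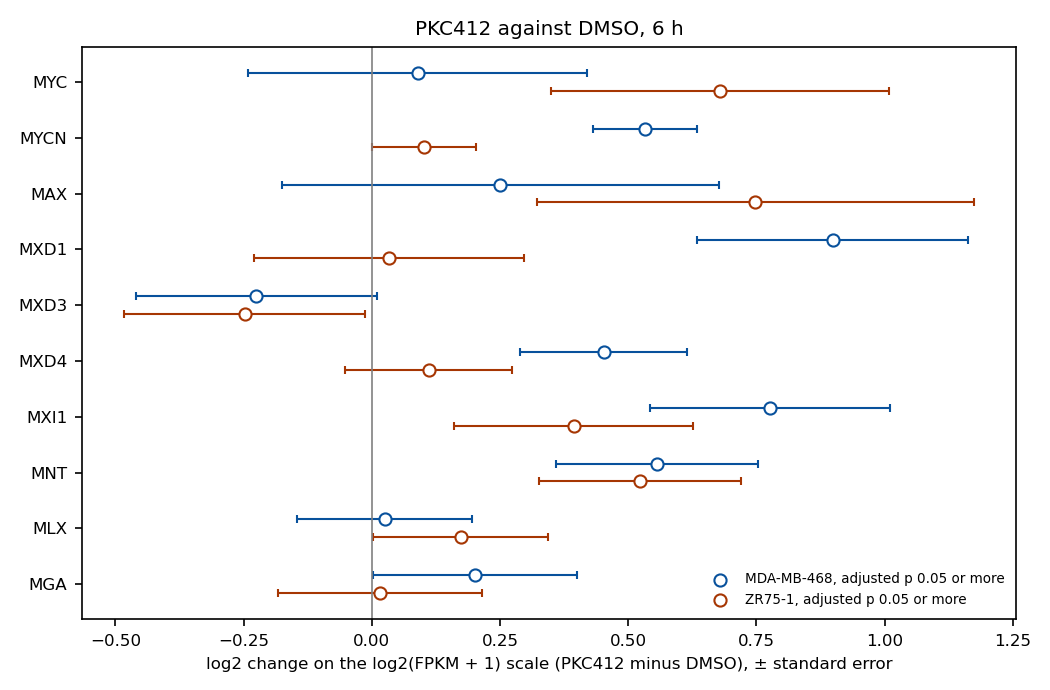
Change by PKC412 (horizontal axis, log2 on the FPKM + 1 scale, PKC412 minus DMSO) for each member in MDA-MB-468 (blue, upper point) and ZR75-1 (brown, lower point), with bars for the standard error of limma. All points are open because no adjusted p was under 0.05, and 9 of the 10 values in each line are above 0, with MXD3 below 0 in both.

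The difference between the 2 responses was tested directly, as the change in MDA-MB-468 minus that in ZR75-1. None of the members passed, while 43 genes, 0.268% of those tested, did. An unadjusted limma p under 0.05 was reached by 2 members, MYCN and MXD1, and by 7.05% of all genes. The difference was 0.87 for MXD1 (SE 0.37, 95% interval 0.01 to 1.72, limma adjusted p = 0.708) and 0.43 for MYCN (SE 0.14, 95% interval 0.10 to 0.76, limma adjusted p = 0.518). For MYC it was -0.59 (95% interval -1.66 to 0.49), and 0.02 without ZR75-1 DMSO replicate 1. For MNT, with 0.56 in one line and 0.52 in the other, the difference was 0.03 (95% interval -0.61 to 0.68). A difference between the lines in the response was therefore not detected for any member, and the intervals leave room for sizable ones.

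The lines themselves differed more. In DMSO, 2 of the 10 members differed between MDA-MB-468 and ZR75-1, MXD3 higher and MXD4 lower in MDA-MB-468, and 42.4% of all genes tested differed between the lines. In PKC412, 6 members differed, with MYCN, MXD3, MXI1 and MGA higher and MXD4 and MLX lower in MDA-MB-468, against 58.6% of all genes. These shares are below or near the background of each comparison, so the values below describe the members and single out no property of the network.

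MXD4 had the largest difference of the members on the log2(FPKM + 1) scale, in DMSO and in PKC412. All 5 ZR75-1 samples, at 16.9 and 15.98 FPKM in DMSO and 16.7, 22.0 and 15.3 FPKM in PKC412, lay above all 5 MDA-MB-468 samples, whose highest value was 5.43 FPKM. The ZR75-1 mean was 4.72 times that of MDA-MB-468 in DMSO and 3.51 times in PKC412, and the log2 difference, MDA-MB-468 minus ZR75-1, was -1.96 (SE 0.18, limma adjusted p = 5.374e-05) and -1.62 (SE 0.15, adjusted p = 3.266e-05).

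MXD3 had the opposite pattern. It was at 33.2 and 23.7 FPKM in DMSO and 21.3, 26.0 and 24.6 FPKM in PKC412 in MDA-MB-468, and at 17.9 and 13.0 FPKM in DMSO and 16.3, 12.6 and 10.0 FPKM in PKC412 in ZR75-1. All 5 MDA-MB-468 samples lay above all 5 ZR75-1 samples, and the log2 difference was 0.84 in DMSO (SE 0.26, limma adjusted p = 0.0303) and 0.86 in PKC412 (SE 0.21, adjusted p = 0.00821). The DMSO call was lost, with an adjusted p of 0.147 and a difference of 0.66, after scaling by median ratios, and the PKC412 call with 0.67 and an adjusted p of 0.0618. The DMSO difference was 0.60 without MDA-MB-468 DMSO replicate 1 and 0.62 without ZR75-1 DMSO replicate 2, where the call was lost too. MXD3 shares 1158 of its 5154 exonic bases with PRELID1 on the opposite strand and 926 with RAB24 on the same strand. PRELID1 ran at 219 to 399 FPKM, and the log2 difference between the lines in DMSO was 0.46 for PRELID1 (SE 0.17) and 0.77 for RAB24 (SE 0.23), both higher in MDA-MB-468. The strand setting of the counting is not given in the sources used here, so reads of the bases that MXD3 shares with PRELID1 cannot be told apart. Those shared with RAB24 could not be told apart by strand in any case.

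MLX was lower in MDA-MB-468, where it lay between 18.9 and 21.9 FPKM, than in ZR75-1, where it was at 22.3 and 33.9 FPKM in DMSO and at 29.2, 30.8 and 33.7 FPKM in PKC412. No sample overlapped, and the log2 difference was -0.42 in DMSO (SE 0.19, limma adjusted p = 0.111) and -0.57 in PKC412 (SE 0.15, adjusted p = 0.0130). MLX shares 770 exonic bases with PSMC3IP on the opposite strand, whose difference ran the other way, by 2.82 in DMSO.

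Higher in MDA-MB-468 were MYCN, MXI1 and MGA. MGA lay between 0.950 and 1.72 FPKM in MDA-MB-468 and between 0.112 and 0.791 FPKM in ZR75-1, without overlap, and differed by 0.57 (log2) in DMSO (SE 0.22, limma adjusted p = 0.0691) and 0.75 in PKC412 (SE 0.18, adjusted p = 0.00698). MYCN, without overlap and at most 1.08 FPKM, differed by 0.29 in DMSO (SE 0.11, limma adjusted p = 0.0660) and 0.73 in PKC412 (SE 0.09, adjusted p = 0.0002299). MXI1 differed by 0.31 in DMSO (limma adjusted p = 0.379), where the lines overlapped, and by 0.69 in PKC412 (SE 0.21, adjusted p = 0.0209), where they did not. That call was lost without any of 4 PKC412 samples, replicates 1 or 3 of MDA-MB-468 and replicates 1 or 2 of ZR75-1, with differences of 0.58 to 0.69.

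MYC and MAX were higher on average in ZR75-1. In PKC412 their samples did not overlap between the lines, with log2 differences of -0.78 for MYC (SE 0.30, limma adjusted p = 0.0512) and -0.83 for MAX (SE 0.38, adjusted p = 0.0943), both short of the threshold. Without ZR75-1 DMSO replicate 1, which is in neither of these groups but widens the shared estimate of the spread, the values were the same and the adjusted p was 0.00628 for MYC and 0.00593 for MAX. In DMSO the differences were -0.19 for MYC and -0.33 for MAX (limma adjusted p = 0.731 and 0.622) and became -0.80 and -1.17 (adjusted p = 0.0460 and 0.0129) without that sample. Without ZR75-1 DMSO replicate 2 they turned to 0.42 for MYC and 0.51 for MAX (adjusted p = 0.234 and 0.181), so their direction in DMSO rests on the samples kept. MNT differed by 0.05 in DMSO and 0.09 in PKC412 (95% intervals -0.45 to 0.55 and -0.32 to 0.49). MXD1 differed by -0.54 in DMSO, where the lines did not overlap, and by 0.33 in PKC412, where they did (limma adjusted p = 0.177 and 0.262).

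Counting all 5 samples of each line, 3 members (MYCN, MXD3 and MGA) were wholly higher in MDA-MB-468 and 2 (MXD4 and MLX) wholly lower, while 29.7% and 18.1% of all genes were. In DMSO alone, 3 members were wholly higher and 3 wholly lower (42.3% and 27.3% of all genes), and in PKC412 4 and 4 (40.3% and 24.2%).

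**Figure D3:**
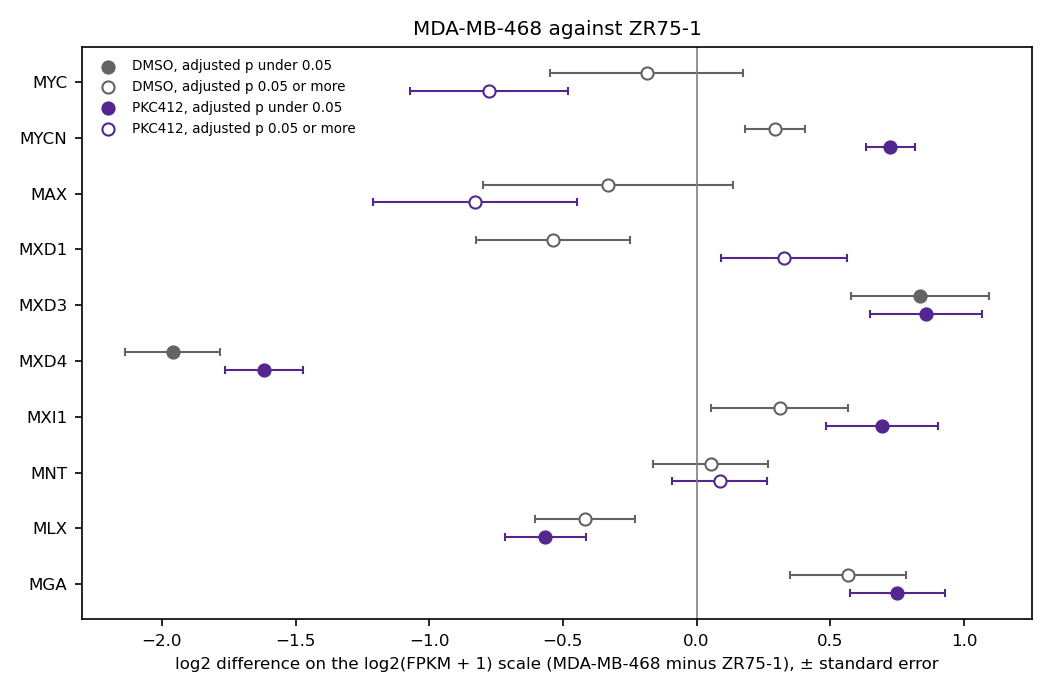
Difference between the lines (horizontal axis, log2 on the FPKM + 1 scale, MDA-MB-468 minus ZR75-1) for each member in DMSO (grey, upper point) and PKC412 (purple, lower point), with bars for the standard error of limma and filled points for an adjusted p under 0.05. MXD4 lies farthest from 0, at -1.96 and -1.62, and MXD3 is on the opposite side, at 0.84 and 0.86.

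The members were next set against each other within each sample. MYC to MAX was a narrow ratio, from 1.54 to 2.25 over the 10 samples, with both ends in the DMSO samples of ZR75-1. In MDA-MB-468 it was 2.13 and 2.01 in DMSO and 1.83, 1.94 and 1.72 in PKC412, so that the groups did not overlap. Such separation was common for single genes of this line, with 39.6% wholly higher and 16.3% wholly lower in PKC412. The ratio itself was not tested. The summed level of MXD1, MXD3, MXD4, MXI1 and MNT was also narrow, from 32.6 to 41.5 FPKM in all samples of both lines. What differed was its makeup. The sum, the shares and the ratios with MXD3 carry the limit given above, that MXD3 shares exonic bases with PRELID1 and RAB24. MXD3 made up 79.9% and 72.8% of this sum in MDA-MB-468 in DMSO and 54.0%, 66.5% and 60.2% in PKC412, against 45.5% and 36.3%, and 40.9%, 30.7% and 28.2%, in ZR75-1. MXD4 made up 8.88% to 13.4% in MDA-MB-468 and 41.9% to 53.6% in ZR75-1. MXD4 to MXD3 was 0.111 to 0.248 in MDA-MB-468 and 0.940 to 1.75 in ZR75-1.

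The ratio of MYC to the summed repressors in MDA-MB-468 averaged 0.634 ± 0.217 over the DMSO samples (SD, n = 2) and 0.613 ± 0.0971 over the PKC412 samples (SD, n = 3). The DMSO samples of ZR75-1, with 0.423 and 1.12, bracketed this range, and the PKC412 samples of ZR75-1, with 0.945, 0.978 and 1.40, lay above every MDA-MB-468 sample. All of these are ratios of RNA levels, the sum includes MXD3 with its limit, and protein was not measured here.

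**Figure D4:**
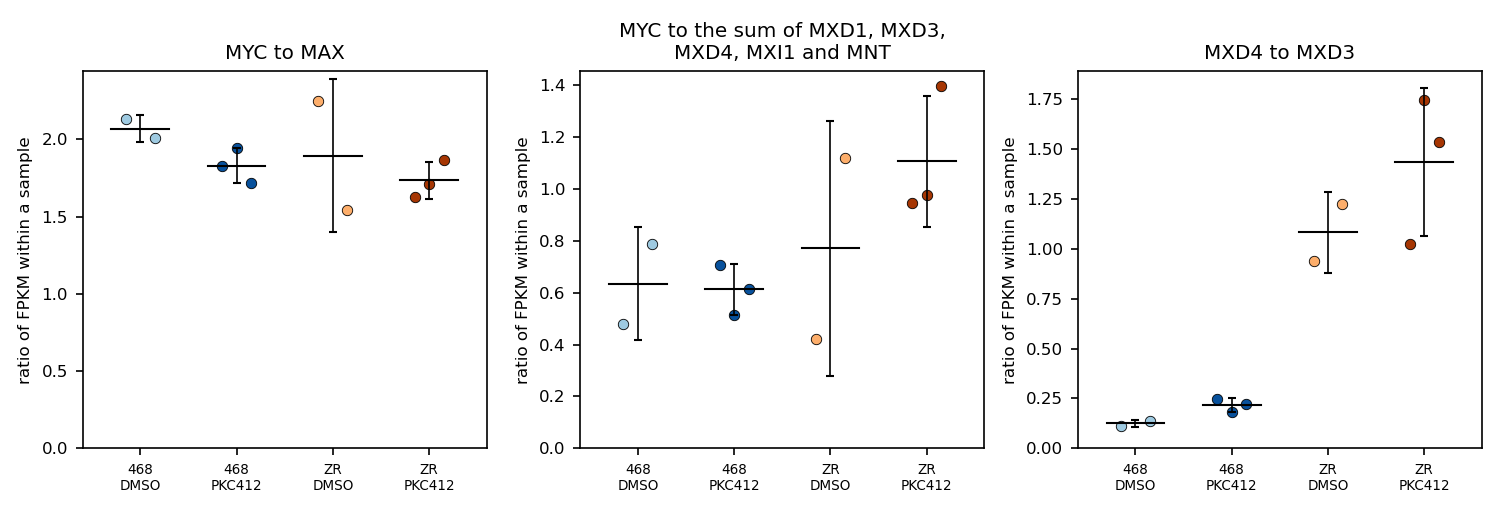
Ratios of FPKM within each sample (vertical axes, linear, starting at 0), with the group mean (horizontal line) and SD (whiskers), for MYC to MAX, MYC to the summed repressors, and MXD4 to MXD3. MXD4 to MXD3 separates the lines, at most 0.248 in MDA-MB-468 and at least 0.940 in ZR75-1, while the DMSO samples of ZR75-1 are far apart for both MYC ratios.

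The genes whose pattern was most like that of MYC were sought among 8733 genes with a mean above 1 FPKM in every group, by Pearson's r of log2(FPKM + 1) over the 10 samples after each line's mean was subtracted. The closest were HSPA8, a constitutive heat shock protein (r = 0.981), MAX (0.980), BAHD1 (0.978), FAM82A2 (0.978) and BCAR3 (0.977). MLX ranked 35th with 0.953, MNT had 0.769, MXI1 0.661, MXD1 0.363, MXD4 0.07 and MXD3 -0.782. These values describe genes measured in the same libraries, and ZR75-1 DMSO replicate 1 was low in MYC and in each of the 5 closest genes within its line. Without it r was 0.872 for MAX, 0.881 for HSPA8, 0.969 for BAHD1 and 0.780 for MLX over 9 samples.

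Genes around the network were then counted under PKC412 from lists. Of 13 corepressor genes of the SIN3 and NCOR type, 10 genes of the MGA complex, 17 MYC coactivator genes and 18 genes of MYC protein turnover, none passed the limma threshold in either line. At an unadjusted p under 0.05 there were 2, 1, 0 and 1 in MDA-MB-468 and 1, 0, 2 and 2 in ZR75-1, while 16.4% and 11.2% of all genes reached that level and 1.26% and 0.946% passed the adjusted threshold. In the first list, HDAC2, a histone deacetylase of SIN3 complexes, was at 3.28 and 10.6 FPKM in DMSO and at 38.8, 33.8 and 36.6 FPKM in PKC412 in MDA-MB-468. These groups were far apart but the DMSO samples disagreed, and the log2 change was 2.40 (SE 0.61, limma adjusted p = 0.134). USP36, a nucleolar deubiquitinase that stabilises MYC, was at 2.76 and 3.44 FPKM in DMSO and at 10.1, 10.1 and 17.2 FPKM in PKC412 in ZR75-1, with a log2 change of 1.68 (SE 0.30, limma adjusted p = 0.0508).

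Of 41 MYC-activated target genes tested, 1 rose in ZR75-1 and none passed in MDA-MB-468, where 8 had an unadjusted p under 0.05. Over all genes, 0.747% rose in ZR75-1 and 16.4% had an unadjusted p under 0.05 in MDA-MB-468. The gene was ODC1, which encodes ornithine decarboxylase, the first enzyme of polyamine synthesis. It was at 6.03 and 9.32 FPKM in DMSO and at 18.6, 17.8 and 18.1 FPKM in PKC412, a log2 change of 1.17 (SE 0.16, limma adjusted p = 0.0199) that was 0.89 with an adjusted p of 0.0577 without ZR75-1 DMSO replicate 1. The list had a median change of 0.07 in MDA-MB-468 cells and 0.02 in ZR75-1 cells, against 0.11 and 0.07 over all genes. RRS1, a ribosome biogenesis factor, had the smallest p of the list in MDA-MB-468, with 13.2 and 13.5 FPKM in DMSO and 8.04, 8.12 and 9.25 FPKM in PKC412 (log2 change -0.60, SE 0.12, limma adjusted p = 0.0554).

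Of 14 MYC-repressed target genes, CDKN1A rose and GADD45B fell in MDA-MB-468, and NDRG1 rose in ZR75-1. CDKN1A, the gene of the cell cycle inhibitor p21, was at 27.2 and 28.2 FPKM in DMSO and at 60.4, 59.4 and 61.7 FPKM in PKC412, a log2 change of 1.10 (SE 0.14, limma adjusted p = 0.0104). GADD45B, a stress-response gene, was at 51.4 and 43.0 FPKM and then at 18.2, 21.7 and 22.3 FPKM, and it fell by 1.15 on the log2 scale (SE 0.18, limma adjusted p = 0.0271). NDRG1, a stress and differentiation gene, was at 1.11 and 1.10 FPKM in ZR75-1 in DMSO and at 2.27, 2.73 and 2.60 FPKM in PKC412, a log2 change of 0.75 (SE 0.11, limma adjusted p = 0.0267). In each of the 3 the samples did not overlap, and their directions were mixed within the list, whose median was 0.31 in MDA-MB-468 cells and 0.16 in ZR75-1 cells. Of all genes tested, 0.691% rose and 0.566% fell in MDA-MB-468, and 0.747% rose and 0.199% fell in ZR75-1. With 1 of the 10 samples left out, CDKN1A was not called without either MDA-MB-468 DMSO sample or MDA-MB-468 PKC412 replicate 3 (adjusted p = 0.0583 to 0.110). GADD45B was called only without PKC412 replicate 2 of either line or ZR75-1 PKC412 replicate 3, and ODC1 only without PKC412 replicate 2 of either line or ZR75-1 DMSO replicate 2. NDRG1 was called only without ZR75-1 PKC412 replicate 2. The sign of all of them was the same throughout. Scaling by median ratios ended the calls of GADD45B and NDRG1 (adjusted p = 0.0679 and 0.0696), and fitting ZR75-1 alone those of ODC1 and NDRG1 (adjusted p = 0.475 and 0.872). None of these lists had a gene past the threshold in the difference between the lines, and none of 12 housekeeping genes passed in either line.

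Of the other network genes, MLXIP and MLXIPL differed between the lines. MLXIP, the MLX partner also called MondoA, was at 1.05 to 2.20 FPKM in MDA-MB-468 and at 3.57 to 6.59 FPKM in ZR75-1, with log2 differences of -1.11 in DMSO and -1.16 in PKC412 (limma adjusted p = 0.00739 and 0.00148). MLXIPL, the other partner, known as ChREBP, was lower in MDA-MB-468 too, by -0.70 and -0.73. MYCL1, the third MYC paralog, stayed between 0.138 and 0.547 FPKM and passed in no comparison. TXNIP, a glucose-sensitive target of MLX and MLXIP, was at 0 to 0.00918 FPKM in the 5 MDA-MB-468 samples and at 35.5 and 62.0 FPKM in DMSO and 61.3, 83.0 and 85.9 FPKM in PKC412 in ZR75-1. The related target ARRDC4 reached at most 0.0511 FPKM in MDA-MB-468 and 0.376 to 1.83 FPKM in ZR75-1. Of the 4 tested genes of this list, 1 (TXNIP) was lower in MDA-MB-468 in DMSO and 2 (TXNIP and ARRDC4) in PKC412, against 15.9% and 21.6% of all genes. PFKFB3, an enzyme gene of glycolysis control, differed by -1.20 and -0.66 (limma adjusted p = 0.0834 and 0.187), and the transcription factor gene KLF10 by -0.29 and 0.34 (adjusted p = 0.739 and 0.554). Under PKC412 none of these 4 genes passed in either line, with 1 in each at an unadjusted p under 0.05 (16.4% and 11.2% of all genes).

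MYC target genes between the lines went mostly one way. Of the 41 MYC-activated targets, 19 were higher and 4 lower in MDA-MB-468 in DMSO, and 22 were higher and 5 lower in PKC412, while 26.5% and 15.9% of all genes in DMSO and 37% and 21.6% in PKC412 were. Among them FBL, the nucleolar methyltransferase fibrillarin, differed by 1.45 in DMSO, CAD, an enzyme of pyrimidine synthesis, by 1.61 and LDHA, lactate dehydrogenase, by 1.75, while CDK4, a cell cycle kinase, differed by -1.10. Of the 14 MYC-repressed targets, 8 were higher and 3 lower in MDA-MB-468 in DMSO and in PKC412 alike, with CDKN1A lower by -2.66. Of 12 housekeeping genes, 4 were higher and 2 lower in DMSO. Both target lists thus held more calls higher than lower in MDA-MB-468, as did all genes. In DMSO the median difference was 0.72 for the activated and 0.59 for the repressed targets. It was 0.41 for the housekeeping genes and 0.11 over all genes. Whether a list differs from the rest of the genes was not tested. MYC itself had the lower mean in MDA-MB-468, but its direction in DMSO rests on the samples kept.

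Around the MYC gene itself, PVT1, a long noncoding RNA next to MYC, was at 3.84 and 3.78 FPKM in DMSO and at 4.78, 4.69 and 4.89 FPKM in PKC412 in MDA-MB-468, without overlap, and at 4.28 to 6.64 FPKM in ZR75-1, with overlap. The log2 change under PKC412 was 0.26 in the former line and 0.27 in the latter (SE 0.16 for both, limma adjusted p = 0.365 and 0.576), and none of the 5 neighbours listed passed in either line, with 2 and 1 at an unadjusted p under 0.05 (16.4% and 11.2% of all genes). TRIB1, a pseudokinase gene further along the chromosome, was at 1.48 and 2.00 FPKM in DMSO and at 4.06, 3.30 and 3.57 FPKM in PKC412 in MDA-MB-468, a log2 change of 0.77 (SE 0.18, limma adjusted p = 0.118) with no overlap.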

How the data were processed

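RNA of 10 samples was sequenced, from MDA-MB-468 and ZR75-1 cells in DMSO or PKC412. The authors deposited FPKM per gene symbol, made with an in-house pipeline from TruSeq libraries, and the submitters' processing notes name CASAVA 1.82, TopHat2 and hg19. The annotation, filters and strand setting are not given in the sources used here, and the number of reads is unknown. Of 23426 genes, 3193 were 0 in every sample. Groups came from the sample labels.

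On log2(FPKM + 1), limma 3.58.1 (R 4.3.3) was fitted to all samples with a mean for each group, eBayes with trend and Benjamini-Hochberg adjustment at 0.05. The 16071 genes tested had a group mean that exceeded 0.1 FPKM somewhere. Fold changes on this scale understate those of low genes. GC content, length and gene overlaps came from GENCODE 29 (GRCh38) and were joined to the levels by gene symbol. For GC content and length, 20638 genes were matched (88.1%). The overlaps were computed from GRCh38 coordinates, while the levels were made on hg19. The script was tested on simulated data. Python 3.11.15, pandas 2.3.3 and matplotlib 3.10.9 were used besides.

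The members and lists were chosen with earlier results of these data known. Named genes were all members, MYCL1, MLXIP, MLXIPL, TXNIP, ARRDC4, PVT1, the 5 genes most like MYC and, per list, those past the threshold under PKC412 (at most 4) or else those with the smallest p. FBL, CAD, LDHA, CDK4, PFKFB3 and the genes that overlap members were added after their values were seen, and not every gene the rule allows is named. Alternatives were other pseudocounts, filters and scalings, each line alone, no trend, a replicate block and leaving out each sample.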

Additional observations from a re-analysis of the deposited data

How the results depend on the processing

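Over 974 values of the members' log2 changes under the alternatives, 887 kept their sign and their side of the threshold, 28 passed it newly, 10 no longer passed and 49 changed sign. The sign changed under at least 1 alternative for 20 of the 50 changes, the largest of them 0.75, and for none of the 8 past the threshold. MXD4 differed between the lines under every alternative that gives that comparison.

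The count of members that differed between the lines in DMSO, 2 as reported, was 4 after scaling by median ratios (MYCN, MXD1, MXD4 and MLX), 7 after the adjustment for GC content and length, and 1 to 5 with 1 sample left out. It was 1 (MXD4) without MDA-MB-468 DMSO replicate 1, MDA-MB-468 PKC412 replicate 3 or ZR75-1 DMSO replicate 2, and 5 without ZR75-1 DMSO replicate 1. In PKC412 the count of 6 went from 5 to 8. The count under PKC412 in MDA-MB-468, 0 as reported, was 1 (MYCN) after the GC adjustment and 0 to 1 with 1 sample left out, and in ZR75-1 it was also 0 to 1, with MAX called without DMSO replicate 2. MLX between the lines in PKC412 was -0.49 (adjusted p = 0.0863) after rescaling to a common FPKM sum.

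Signs changed for values near 0 or resting on 1 sample. The MYC change in MDA-MB-468 was -0.029 by median ratios and -0.085 to 0.26 with 1 sample left out. The MAX change there was -0.0034 with the GC adjustment and a replicate block. With 1 sample left out, the change in ZR75-1 ran from -0.093 to 1.59 for MAX. The difference between the responses ran from -1.20 to 0.021 for MYC and from -1.34 to 0.34 for MAX, and that between the lines in DMSO from -0.80 to 0.42 and from -1.17 to 0.51.

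Whether replicate numbers pair the samples is not known. The correlations of their deviations across 8733 genes were -0.407 and -0.234 for MDA-MB-468 and 0.0844 and -0.512 for ZR75-1. They cannot settle it, because the deviations of the 2 DMSO samples of a line mirror each other. With the replicate number as a block, 0 members and 0 genes passed for PKC412 in either line or for the difference, with 2 residual degrees of freedom left. The block and the fits of each line alone give no comparison between the lines. Each line alone, 81 genes were called for MDA-MB-468 and 12 for ZR75-1, and after the GC adjustment 587 and 457. Rescaling to a common FPKM sum moved the median change of all genes from 0.11 to 0.24 for MDA-MB-468 and from 0.07 to 0.19 for ZR75-1. Depth is unknown, so precision rests on 2 or 3 samples per group, and the low levels of MYCN and MGA cannot be given a counting error.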
